A study of Homo sapiens with 10 samples.

Results

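The Kruppel-like factors are transcription factors that share a set of zinc fingers at their C-terminus and bind CACCC boxes and GC-rich sites in DNA. The 10 genes described are KLF2, KLF3, KLF4, KLF5, KLF6, KLF9, KLF10, KLF11, KLF13 and KLF15, chosen with earlier results of these data known. They were taken by symbol among the 22392 genes that had a transcript cluster of their own on the array. Such a cluster pools the probes that match 1 gene, and each of the 10 had 1 cluster that named it alone. The zinc fingers are much alike across the family, and members differ mainly in the partners that the rest of the protein recruits. KLF9, KLF10, KLF11 and KLF13 bind the SIN3 corepressor, KLF3 binds the CtBP corepressor, and KLF2, KLF4, KLF5 and KLF6 can activate transcription through acetyltransferases. Several of these genes are early response genes: KLF10 and KLF11 were first described as genes induced by TGF-beta, KLF2 and KLF4 answer to the MEK5-ERK5-MEF2 pathway, and KLF9 answers to glucocorticoids. In liver, KLF15 is known for the control of gluconeogenesis and amino acid breakdown, and KLF6 for its response to liver injury and its loss in hepatocellular carcinoma.

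Total RNA was hybridized to Affymetrix HuGene 2.1 ST arrays, 1 array for each of 10 samples. Huh7 cells, which come from a human liver tumour, were measured after 9 h with sorafenib at 10 μM (2 arrays, replicates 5 and 6) and without it (2 arrays, replicates 1 and 3). Cells of a line labelled shRb were measured after sorafenib given in the same way (3 arrays, replicates 10, 11 and 12) and without it (3 arrays, replicates 7, 8 and 9). Sorafenib blocks RAF kinases and several receptor tyrosine kinases, and all cells were grown in DMEM with fetal calf serum. Control cells carry the treatment label none, so the part of the vehicle was not tested. The labels state neither the construct in shRb cells nor whether that line is 1 clone. RB1, the retinoblastoma gene, averaged 5.81 ± 0.21 in control shRb cells (SD, n = 3) and 8.08 ± 0.14 in control Huh7 cells (SD, n = 2), a log2 difference of -2.28 (SE 0.21, adjusted p = 0.00103 from limma). The labels call both sorafenib-treated Huh7 samples the second replicate, so their use as separate cultures is assumed, and P-values measure only the spread between these arrays.

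All values are log2 after RMA, a normalization that brings the distributions of all arrays together and hides any change in total RNA. The median cluster lay between 3.39 and 3.42 on the 10 arrays and the upper quartile between 5.21 and 5.29. Pearson's r across clusters was 0.984 to 0.990 within groups and 0.975 to 0.987 between groups. The number of arrays limits the precision. ALB, a defining hepatocyte gene, lay between 11.42 and 12.12, and AFP, APOB, FGB, TF and TTR between 10.12 and 11.79. SERPINA1 lay between 6.90 and 7.31 and APOA1 between 5.93 and 6.70. The log2 differences of these 8 hepatocyte markers with sorafenib lay between -0.20 and 0.22 in Huh7 and between -0.06 and 0.23 in shRb. Between the control lines, 1 of them was called lower in shRb, and AFP averaged 10.25 in control shRb and 11.00 in control Huh7 cells. Of 5 fibroblast markers measured, DCN lay between 1.68 and 1.86, COL1A1, COL1A2 and PDGFRB between 3.33 and 4.91, and LUM between 5.18 and 5.99. Of 5 leukocyte markers, PTPRC lay between 1.49 and 2.04 and CD3E and CD14 between 2.31 and 3.66, whereas CD68 lay between 7.56 and 8.84 and LYZ between 10.61 and 11.22 on all arrays. The 3 endothelial markers measured lay between 2.45 and 3.56. Among all these markers, only LUM was called with sorafenib, higher in shRb (log2 difference 0.49, adjusted p = 0.0134), and its part in the values below was not tested. LUM was also called lower in control shRb than in control Huh7 cells (log2 difference -0.73), with means of 5.20 and 5.94. Its mean with sorafenib was 5.69 in shRb and 5.69 in Huh7 cells. In bulk RNA of this kind, fewer cells that express a gene and less of its RNA per cell cannot be told apart. The strip that held each array is not given in the sources used here, and its part was not tested.

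With sorafenib, 3 of the 10 Kruppel-like factors rose in Huh7 cells and 4 rose and 1 fell in shRb cells. KLF6, KLF10 and KLF11 rose in both lines, while KLF9 rose and KLF5 fell in shRb cells. In Huh7 cells, 1.00% of all genes with a cluster of their own were called higher and 0.893% lower at an adjusted p under 0.05, and 0.776% and 1.26% of all 53617 clusters. In shRb cells, 2.96% of these genes were called higher and 3.74% lower, and 2.30% and 3.09% of all clusters. The median log2 difference of the 10 genes was 0.59 in Huh7 cells and 0.28 in shRb cells, against 0.01 over all clusters in each line. Because the 10 were chosen with earlier results known, these counts and medians do not test whether the family changed more than other genes. None of the 10 was called lower in Huh7 cells by limma or by the methods' t-test after adjustment, and 1, KLF2, was lower at an unadjusted p under 0.05 by either test, against 6.75% of genes by limma and 5.40% by the methods' t-test. In Huh7 cells 6 were higher and 1 lower at an unadjusted p under 0.05 from limma, against 6.75% of genes in each direction. In shRb cells 5 were higher and 2 lower at an unadjusted p under 0.05 from limma, against 9.09% and 11.0% of genes. The study analysed its arrays in TAC, an Affymetrix program, with default settings. Its list of genes raised in Huh7 cells gives an FDR p-value beside an unadjusted one. For experiments on cells the study names the methods' t-test with a threshold of 0.05 and names no adjustment for it. At this threshold 5 of the 10 were higher in Huh7 by the methods' t-test (6.17% of genes), and 5 were higher and 1 lower in shRb (7.91% and 9.51%). After Benjamini-Hochberg adjustment of the methods' t-test, 0 were called in Huh7 and KLF10 was the 1 gene called in shRb. The plot of all values shows each gene on the 10 arrays.

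**Figure D1:**
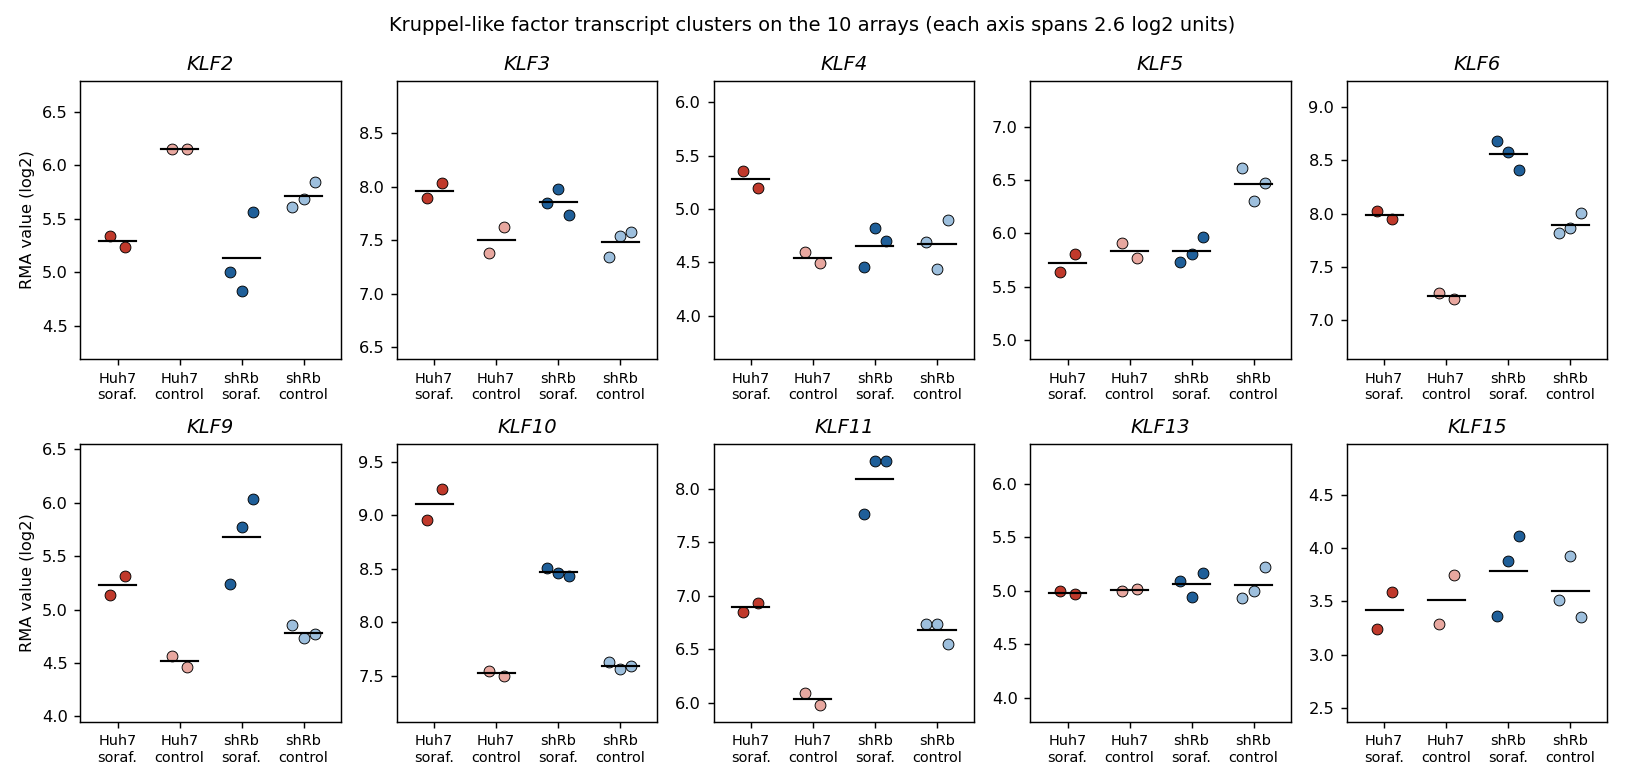
Log2 RMA value of the transcript cluster of each Kruppel-like factor, with 1 point per array and a bar at the group mean, for sorafenib-treated and control Huh7 cells (n = 2 each) and sorafenib-treated and control shRb cells (n = 3 each). Every axis spans 2.6 log2 units around its own gene, so distances can be compared between panels and heights cannot. With sorafenib, KLF3, KLF6, KLF9, KLF10 and KLF11 lie above the control arrays in both lines, and KLF2 lies below them. KLF13 stays between 4.93 and 5.22 on all arrays, and in Huh7 it also lies below its control arrays. The share of all genes without overlap was not counted, so separation alone does not show a change.

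KLF10 had the smallest p of the 10 genes in Huh7 cells and KLF11 in shRb cells. Both encode repressors that are induced by TGF-beta, bind SIN3A and slow cell growth in several cell types. KLF10 (cluster 17079910, chr8:102648784-102655725, GRCh38.p14) had values of 8.96 and 9.25 in sorafenib-treated Huh7 cells, against 7.55 and 7.49 in control Huh7 cells. In shRb cells KLF10 had 8.51, 8.46 and 8.43 with sorafenib, against 7.63, 7.56 and 7.59 without. The groups did not overlap in either line, the control arrays of both lines lay close together, and the treated Huh7 arrays lay above the treated shRb arrays. KLF10 rose 2.99-fold in Huh7 cells (log2 difference 1.58, SE 0.12, adjusted p = 0.000826 from limma). It rose 1.83-fold in shRb cells (0.87, SE 0.10, adjusted p = 0.00128). From the largest rise, KLF10 ranked 37 of 22392 genes in Huh7 and 218 in shRb. The sorafenib effect on KLF10 was 0.71 log2 units smaller in shRb (shRb minus Huh7 -0.71, 95% confidence interval -1.06 to -0.36), and this difference between the lines was not called (adjusted p = 0.238). Control shRb and control Huh7 cells differed by 0.07 in KLF10 (SE 0.11, adjusted p = 0.917). Leaving out any 1 array left KLF10 called in both lines, with adjusted p between 0.00123 and 0.0109 in Huh7 and between 0.00163 and 0.00876 in shRb.

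KLF11 (cluster 16877007, chr2:10043550-10054836) showed its higher values in shRb cells. It had 6.85 and 6.93 in sorafenib-treated Huh7 cells, against 6.09 and 5.98 in control Huh7 cells. In shRb cells it had 7.77, 8.26 and 8.26 with sorafenib, against 6.74, 6.74 and 6.55 without. The groups did not overlap in either line, and every shRb control array lay below both treated Huh7 arrays and above both control Huh7 arrays. KLF11 rose 1.81-fold in Huh7 cells (log2 difference 0.86, SE 0.17, adjusted p = 0.039) and ranked 182 of 22392 genes from the largest rise. It rose 2.68-fold in shRb cells (1.42, SE 0.14, adjusted p = 0.000686) and ranked 59. The effect was 0.56 log2 units larger in shRb than in Huh7 (95% confidence interval 0.06 to 1.06), which was not called (adjusted p = 0.605). KLF11 was 0.64 higher in control shRb than in control Huh7 cells, without overlap and without a call (SE 0.16, adjusted p = 0.122). The call in Huh7 was lost without any one of the 4 Huh7 arrays (adjusted p 0.13 to 0.215) and without shRb control replicates 7, 8 or 9 (0.0652, 0.0642 and 0.0567), and on the Huh7 arrays alone (0.0665). Without sorafenib-treated shRb replicate 10, the higher control level in shRb was called (adjusted p = 0.0301).

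RefSeq lists a pair of start sites for KLF11, and the window of 250 bases before the second holds a cyclic AMP response element, TGACGTCA, a palindrome bound by the CREB and ATF factors. It is shown because this element was found before no other member with a window and in 1.65% of the 35116 such windows of all genes. It lies at positions -176 to -169 from that start, on the plus strand of GRCh38.p14, and the 30 bases around it at chr2:10044034-10044063 read as follows with the element in capitals.
KLF11: atttccagccaTGACGTCAccccggtcctg
The last bases of the element overlap a CACCC box at positions -170 to -166. The same window holds 6 GC boxes, GGGCGG on either strand, and the window of the first start holds 2. A match is a description of letters and does not show that a factor binds there.

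KLF9 and KLF13 encode the other SIN3-binding members. KLF9 is a glucocorticoid and thyroid hormone response gene, and KLF13 was first studied as a regulator of CCL5 in T cells. KLF9 (cluster 17094761, chr9:70384604-70414657) had 5.14 and 5.31 in sorafenib-treated Huh7 cells, against 4.56 and 4.46 in control Huh7 cells. In shRb cells KLF9 had 5.24, 5.77 and 6.04 with sorafenib, against 4.85, 4.73 and 4.77 without. Treated and control arrays did not overlap in either line, and the treated shRb arrays spread more widely than any other group of this gene. KLF9 rose 1.86-fold in shRb cells (log2 difference 0.90, SE 0.18, adjusted p = 0.0186). In Huh7 cells the log2 difference was 0.71 (SE 0.22) and was not called (adjusted p = 0.168). The difference between these effects was 0.19 (95% confidence interval -0.44 to 0.81, adjusted p = 0.93). The call in shRb was lost without control replicates 7, 8 or 9 (adjusted p = 0.0545, 0.0701 and 0.0634) or without treated replicate 11 (0.0583), and on the shRb arrays alone (0.0541). Without sorafenib-treated shRb replicate 10, whose value of 5.24 was the lowest of its group, KLF9 was called in Huh7 as well (adjusted p = 0.0312).

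KLF13 (cluster 16798872, chr15:31326835-31435665) stayed between 4.93 and 5.22 on all 10 arrays. Its treated Huh7 arrays lay below its control Huh7 arrays without overlap, although the difference was near 0. Its log2 difference was -0.02 in Huh7 cells (95% confidence interval -0.32 to 0.27) and 0.02 in shRb cells (-0.23 to 0.26), with adjusted p of 0.971 and 0.972. Both intervals end below the log2 differences of the other SIN3-binding members, which were 0.71 or more in both lines.

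The 250 bases before the start of KLF9 differ in base composition from those of KLF6 and KLF2, the members shown beside it. KLF9 is shown as the only gene of the 8 without a GC box at any start, KLF6 as an activator gene that rose in both lines, and KLF2 for a site of MEF2, the factor that its pathway uses. All 3 are from RefSeq, GRCh38.p14, printed 5′ to 3′ along the gene's strand, and end at the base before the start. Capitals mark the GC boxes, the CCAAT boxes and the MEF2 consensus, on either strand.
KLF9, chr9:70414658-70414907, minus strand: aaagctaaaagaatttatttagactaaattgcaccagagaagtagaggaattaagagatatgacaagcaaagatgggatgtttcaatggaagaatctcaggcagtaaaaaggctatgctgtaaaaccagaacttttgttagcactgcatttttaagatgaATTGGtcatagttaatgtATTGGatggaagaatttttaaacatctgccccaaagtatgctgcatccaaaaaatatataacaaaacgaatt
KLF6, chr10:3785210-3785459, minus strand: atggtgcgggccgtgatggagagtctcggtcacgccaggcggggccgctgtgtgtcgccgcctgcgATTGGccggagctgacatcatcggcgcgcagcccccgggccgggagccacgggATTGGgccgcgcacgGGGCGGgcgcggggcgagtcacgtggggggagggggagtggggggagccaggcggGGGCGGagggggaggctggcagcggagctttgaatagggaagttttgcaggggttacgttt
KLF2, chr19:16324576-16324825, plus strand: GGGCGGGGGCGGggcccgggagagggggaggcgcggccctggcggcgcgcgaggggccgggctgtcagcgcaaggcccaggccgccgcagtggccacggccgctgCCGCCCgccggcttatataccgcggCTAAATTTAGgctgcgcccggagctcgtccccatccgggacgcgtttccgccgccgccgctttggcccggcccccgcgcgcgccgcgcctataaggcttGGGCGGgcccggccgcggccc
The KLF9 window is 32.4% G and C and holds 2 CCAAT boxes, at positions -90 to -86 and -72 to -68. The KLF6 window is 72.4% G and C and holds 2 GC boxes and 2 CCAAT boxes. The KLF2 window is 80% G and C and holds 4 GC boxes and a MEF2 consensus at positions -120 to -111.

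Windows were given for 8 of the 10 genes, 10 windows in all, since KLF5 and KLF11 have a pair of starts each, and KLF3 and KLF10 have none. Both strands were searched for the CACCC box, the GC box, the CRE, the AP-1 site TGACTCA, the CCAAT box, the TATA box TATAAA, the FOXO site GTAAACA, and, by name, the MEF2 consensus and the CArG box. GC boxes were found in 8 of the 10 windows, against 42.6% of all 35116, and CACCC boxes in 4, against 54.7%. CCAAT boxes were in 5, against 32%, and a TATA box in 1, before the first start of KLF5, against 10.7%. The MEF2 consensus was in 1, against 2.8%. No window held an AP-1 site, a FOXO site or a CArG box, which are in 4.2%, 2.98% and 1.16% of all windows. Of the members with 1 window, KLF6, which rose in both lines, carries 2 GC boxes and 2 CCAAT boxes. KLF9, which rose in shRb, carries no GC box and 2 CCAAT boxes. KLF2 and KLF4 carry 4 GC boxes each, KLF15 carries 6, and KLF13 carries 3 and 2 CCAAT boxes. None of these last genes was called with sorafenib. Whether the matches bear on the response was not tested.

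**Figure D2:**
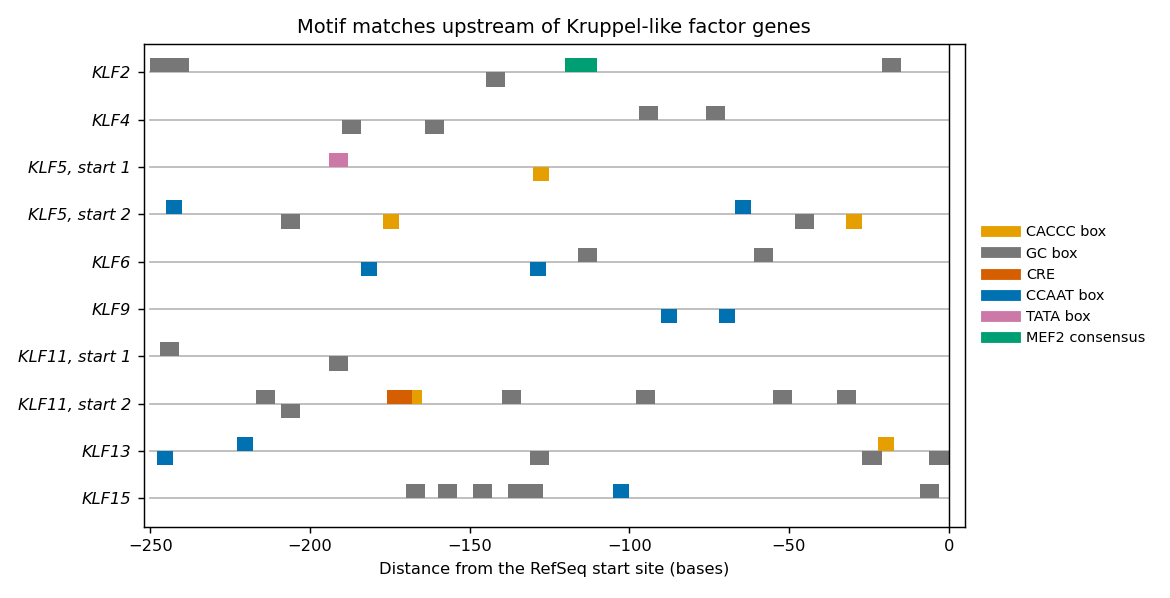
Motif matches in the 250 bases before each RefSeq start site, as distance from the start in bases, with 1 line per window and blocks above the line for matches on the gene's strand and below it for matches on the other. KLF2 has 4 GC boxes and the MEF2 consensus, KLF9 has 2 CCAAT boxes and no GC box, and the CRE of KLF11 lies before its second start, where it overlaps the CACCC box.

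KLF3 encodes a repressor that recruits CtBP and acts in blood and fat cells. KLF3 (cluster 16966008, chr4:38664199-38701517) had 7.89 and 8.03 in sorafenib-treated Huh7 cells, against 7.38 and 7.63 in control Huh7 cells. In shRb cells it had 7.85, 7.97 and 7.73 with sorafenib, against 7.34, 7.54 and 7.58 without. Treated arrays lay above control arrays without overlap in both lines, by similar amounts. The log2 difference was 0.46 in Huh7 (SE 0.14, adjusted p = 0.176) and 0.37 in shRb (SE 0.12, adjusted p = 0.118), and neither was called, nor was it under any alternative run.

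**Figure D3:**
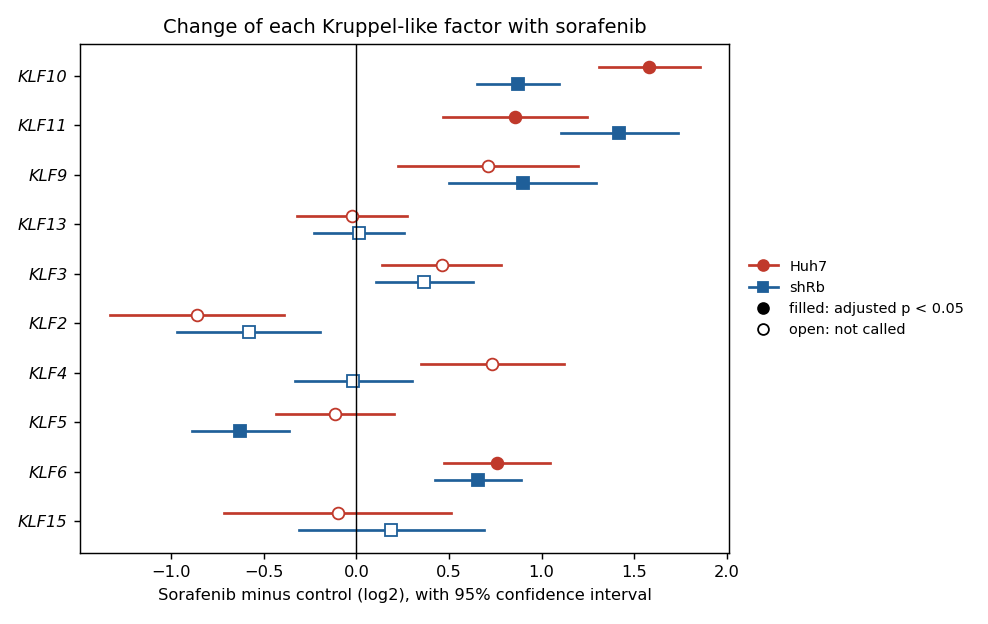
Log2 difference of sorafenib-treated minus control cells for each Kruppel-like factor, in Huh7 (red circles) and shRb (blue squares), with 95% confidence intervals from limma and filled symbols for an adjusted p under 0.05. KLF10 lies farthest to the right in Huh7, at 1.58, and KLF11 in shRb, at 1.42, while KLF2 lies to the left in both lines at -0.86 and -0.58 with open symbols.

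KLF6 belongs to the members that can activate transcription. KLF6 (cluster 16711280, chr10:3775996-3785209) had 8.02 and 7.95 in sorafenib-treated Huh7 cells, against 7.25 and 7.20 in control Huh7 cells. In shRb cells it had 8.68, 8.58 and 8.41 with sorafenib, against 7.82, 7.86 and 8.01 without. Its treated and control arrays did not overlap, and the control shRb arrays also lay above both control Huh7 arrays. KLF6 rose 1.69-fold in Huh7 cells (log2 difference 0.76, SE 0.13, adjusted p = 0.0177). It rose 1.58-fold in shRb cells (0.66, SE 0.10, adjusted p = 0.00631). The effects differed by -0.10 between shRb and Huh7 (95% confidence interval -0.47 to 0.26, adjusted p = 0.934). KLF6 was the only one of the 10 genes called between control shRb and control Huh7 cells, 1.59-fold higher in shRb (0.67, SE 0.12, adjusted p = 0.0299). In that comparison 1.02% of genes were called higher and 0.536% lower, or 0.647% and 0.371% of all clusters. At an unadjusted p under 0.05 from limma, 3 of the 10 were higher in shRb (KLF5, KLF6 and KLF11) and 1 was lower (KLF2), against 6.77% and 6.40% of genes. The rise in Huh7 was not called without any one of the 4 Huh7 arrays (adjusted p 0.0947 to 0.122) or on the Huh7 arrays alone (0.0794). The higher control level in shRb was not called without any one of the 4 Huh7 arrays (0.0532 to 0.233) or of the 3 control shRb arrays (0.0806 to 0.109). KLF6 is also spliced into shorter forms, which 1 cluster does not tell apart.

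KLF2 and KLF4 are the members best known downstream of ERK5, KLF2 in endothelium under flow and in resting T cells, and KLF4 in differentiating epithelium and in reprogramming to pluripotency. KLF2 (cluster 16859314, chr19:16324826-16328685) had 5.34 and 5.24 in sorafenib-treated Huh7 cells, against 6.15 and 6.15 in control Huh7 cells. In shRb cells KLF2 had 5.00, 4.83 and 5.56 with sorafenib, against 5.61, 5.69 and 5.84 without. Treated arrays lay below control arrays in both lines, and in shRb treated replicate 12, at 5.56, came close to the lowest control. The log2 difference was -0.86 in Huh7 (SE 0.21, adjusted p = 0.0793) and -0.58 in shRb (SE 0.17, adjusted p = 0.0913), and neither was called. Without treated shRb replicate 12, both were called, at an adjusted p of 0.0157 in Huh7 and 0.0104 in shRb. With only clusters of 1 gene symbol tested, both were called too (0.0396 and 0.0433). KLF2 was 0.44 lower in control shRb than in control Huh7 cells (SE 0.19, adjusted p = 0.474).

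KLF4 (cluster 17096827, chr9:107484852-107489769) had 5.36 and 5.20 in sorafenib-treated Huh7 cells, against 4.59 and 4.49 in control Huh7 cells. In shRb cells KLF4 had 4.46, 4.82 and 4.70 with sorafenib, against 4.69, 4.44 and 4.90 without. Both treated Huh7 arrays lay above the other 8 arrays, while treated and control shRb arrays overlapped. The log2 difference was 0.73 in Huh7 (SE 0.17, adjusted p = 0.0691) and -0.02 in shRb (95% confidence interval -0.33 to 0.30, adjusted p = 0.976). The effect in shRb minus that in Huh7 was -0.75 (95% confidence interval -1.25 to -0.25), and this difference was not called (adjusted p = 0.405). KLF4 was called in Huh7 when only clusters at or above the median level were tested (adjusted p = 0.0425) or only those with 1 gene symbol (0.0372).

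KLF5 encodes an activator that promotes growth of epithelial progenitors. KLF5 (cluster 16775364, chr13:73054976-73077538) had 5.64 and 5.81 in sorafenib-treated Huh7 cells, against 5.91 and 5.77 in control Huh7 cells, which overlapped. In shRb cells it had 5.73, 5.81 and 5.96 with sorafenib, against 6.61, 6.30 and 6.47 without. The 3 control shRb arrays lay above the other 7, and the treated shRb arrays lay in or just above the range of the 4 Huh7 arrays, which was 5.64 to 5.91. KLF5 fell by 0.63 on the log2 scale in shRb cells (SE 0.12, adjusted p = 0.0139). In Huh7 cells the log2 difference was -0.12 (95% confidence interval -0.43 to 0.20, adjusted p = 0.823). The difference between these effects was -0.51 (95% confidence interval -0.92 to -0.10, adjusted p = 0.544) and was not called. KLF5 was 0.62 higher in control shRb than in control Huh7 cells, without a call (SE 0.13, adjusted p = 0.0678). Its fall in shRb was not called without control replicate 7 (adjusted p = 0.0594) or control replicate 9 (0.0514).

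KLF15 (cluster 16958638, chr3:126288125-126357408) lay near the median of all clusters, between 3.24 and 4.11 on the 10 arrays. Its values were 3.24 and 3.59 in sorafenib-treated Huh7 cells, against 3.29 and 3.74 in control Huh7 cells. In shRb cells they were 3.37, 3.88 and 4.11 with sorafenib, against 3.51, 3.92 and 3.36 without. The groups overlapped in both lines, with log2 differences of -0.10 (95% confidence interval -0.71 to 0.51) in Huh7 and 0.19 (-0.31 to 0.69) in shRb.

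None of the 10 genes was called for the difference between the sorafenib effects in shRb and Huh7. At an unadjusted p under 0.05 from limma, the effect was smaller or more negative in shRb for 3 genes (KLF4, KLF5 and KLF10) and larger for 1 (KLF11), against 5.07% and 3.78% of all genes with a cluster of their own. At an adjusted p under 0.05, 0.00933% of all clusters were called higher and 0.0392% lower, and 0.0134% and 0.0715% of genes with a cluster of their own. Under the alternatives run for KLF4, KLF5, KLF10 and KLF11, the adjusted p lay between 0.104 and 0.839. The comparisons of sorafenib and of the control lines share control arrays, so their values are given side by side only.

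Of the 8 other KLF genes, 7 had a cluster of their own, and KLF7 was called in both lines. KLF7, known from the growth of neurons, had 9.03 and 9.17 in sorafenib-treated Huh7 cells, against 8.10 and 8.20 in control Huh7 cells. In shRb cells it had 8.99, 9.00 and 8.90 with sorafenib, against 8.49, 8.45 and 8.61 without. KLF7 thus lay higher on every treated array than on every control array of its line. It rose 1.94-fold in Huh7 (log2 difference 0.95, SE 0.12, adjusted p = 0.00487) and 1.36-fold in shRb (0.45, SE 0.10, adjusted p = 0.0264). The call in Huh7 was lost without treated replicate 6 (adjusted p = 0.0516) and on the Huh7 arrays alone (0.057). The call in shRb was lost on the shRb arrays alone (0.0624) and without control replicates 7 or 8 (0.0955 and 0.105) or treated replicates 10, 11 or 12 (0.0579, 0.0715 and 0.0528). With KLF7, 4 of 17 KLF genes measured rose in Huh7, against 1.00% of all genes. Of the 17, 5 rose and 1 fell in shRb, against 2.96% and 3.74% of all genes.

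The SP genes encode the nearest relatives of the family, which bind the same GC boxes. Of 9 SP genes, all measured, SP8, which acts in limb and brain development in mice, was called in both lines and was lower. Among all genes, 0.893% were called lower in Huh7 and 3.74% in shRb. SP8 had 7.52 and 7.27 in sorafenib-treated Huh7 cells, against 8.11 and 8.43 in control Huh7 cells. In shRb cells it had 6.52, 6.73 and 6.41 with sorafenib, against 7.50, 7.61 and 7.51 without. SP8 fell by 0.87 on the log2 scale in Huh7 (SE 0.16, adjusted p = 0.0241) and by 0.98 in shRb (SE 0.13, adjusted p = 0.00242), and the groups did not overlap. The call in Huh7 was lost without any one of the 4 Huh7 arrays (adjusted p 0.0539 to 0.174). By the methods' t-test, KLF7 and SP8 passed an unadjusted threshold of 0.05 in both lines, and neither passed after adjustment. SP1 and SP3, which are expressed in most cells, had log2 differences of 0.01 and 0.13 in Huh7 and of 0.03 and 0.21 in shRb, and none was called.

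**Figure D4:**
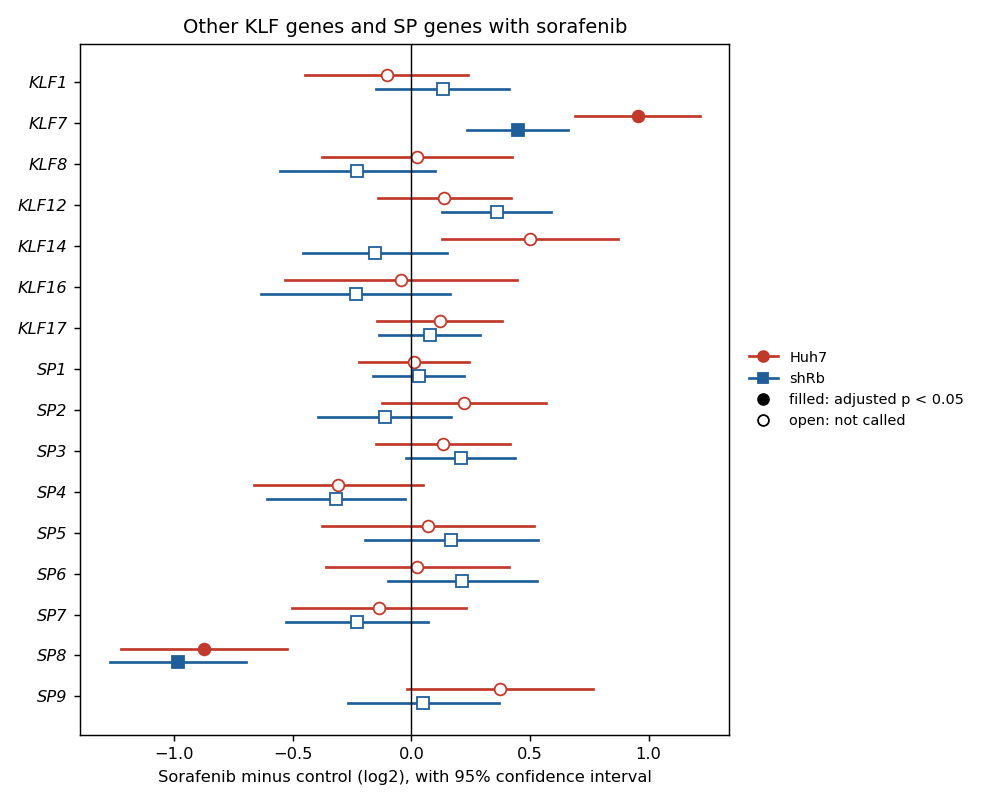
Log2 difference of sorafenib-treated minus control cells for the other 7 KLF genes and the 9 SP genes measured, in Huh7 (red circles) and shRb (blue squares), with 95% confidence intervals from limma and filled symbols for an adjusted p under 0.05. KLF7 lies to the right at 0.95 and 0.45 and SP8 to the left at -0.87 and -0.98, and all other symbols are open.

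Of 9 genes of corepressors and coactivators, none was called in Huh7 by limma or by the methods' t-test after adjustment. At an unadjusted p under 0.05 from limma, 0 were higher and 1 lower in Huh7, where 6.75% of all genes were higher and 6.75% lower. In shRb 1 was called lower, against 3.74% of all genes. That gene, SIN3B, a scaffold of a histone deacetylase complex, had 5.70, 5.87 and 5.97 in sorafenib-treated shRb cells, against 6.31, 6.27 and 6.28 in control shRb cells (log2 difference -0.44, SE 0.10, adjusted p = 0.0294). Its call was lost without any one array of 7, which were control Huh7 replicates 1 and 3, control shRb replicates 7, 8 and 9 and treated shRb replicates 10 and 11 (adjusted p 0.051 to 0.102).

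Of 5 ubiquitin ligase genes, 2 were lower in shRb, and none was called in Huh7 (1 higher and 2 lower at an unadjusted p under 0.05, against 6.75% of all genes each way, and none by the methods' t-test after adjustment). SMURF2, a ligase that targets TGF-beta signalling proteins, had 6.75, 6.35 and 6.22 in sorafenib-treated shRb cells, against 7.12, 7.26 and 7.10 in control shRb cells (log2 difference -0.72, SE 0.14, adjusted p = 0.0151). WWP1, a ligase of KLF2 and KLF5, had 7.72, 7.21 and 7.32, against 8.02, 8.00 and 7.84 in control shRb cells (-0.54, SE 0.13, adjusted p = 0.0491). Neither overlapped between groups. Among all genes, 3.74% were called lower in shRb. SMURF2 lost its call without control replicate 8 (adjusted p = 0.0652) or treated replicates 11 or 12 (0.0505 and 0.0507). Treated shRb replicate 10 was the only array whose absence left WWP1 called (adjusted p = 0.00852), and without any one of the other 9 its adjusted p was 0.0732 to 0.153.

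Of 7 genes of the MEK5-ERK5-MEF2 pathway, 2 were lower in shRb, and none was called in Huh7 (1 higher and 0 lower at an unadjusted p under 0.05, against 6.75% of all genes each way, and none by the methods' t-test after adjustment). MAPK7, which encodes ERK5, had 5.32, 5.40 and 5.45 in sorafenib-treated shRb cells, against 6.01, 6.24 and 5.96 in control shRb cells (log2 difference -0.67, SE 0.12, adjusted p = 0.0127). MAP3K3, a kinase above MEK5, had 5.52, 5.39 and 5.29, against 5.90, 6.00 and 5.99 in control shRb cells (-0.56, SE 0.10, adjusted p = 0.00888). In Huh7 the log2 differences were -0.22 for MAPK7 and 0.08 for MAP3K3 (adjusted p = 0.619 and 0.868). MAP3K3 was 0.82 higher in control shRb than in control Huh7 cells (SE 0.11, adjusted p = 0.00649). Its mean was 5.40 in treated shRb cells and 5.14 in control Huh7 cells. MAPK7 lost its call without control shRb replicate 8 (adjusted p = 0.0545). Among all genes, 3.74% were called lower in shRb.

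Of 7 genes known to respond to TGF-beta besides KLF10 and KLF11, 6 were measured, and their directions were mixed. In Huh7, 2 rose, against 1.00% of all genes. In shRb 2 rose and 1 fell, against 2.96% and 3.74% of all genes. SMAD7, an inhibitor of TGF-beta receptors, had 7.77 and 8.16 in sorafenib-treated Huh7 cells, against 6.27 and 6.37 in control Huh7 cells. In shRb cells SMAD7 had 7.16, 7.39 and 7.64 with sorafenib, against 6.55, 6.68 and 6.53 without. SMAD7 rose 3.13-fold in Huh7 (log2 difference 1.65, SE 0.18, adjusted p = 0.00248) and 1.75-fold in shRb (0.81, SE 0.14, adjusted p = 0.0119). SKIL, a corepressor of SMAD proteins, rose 1.60-fold in Huh7 (0.68, SE 0.12, adjusted p = 0.0257) and 1.91-fold in shRb (0.94, SE 0.10, adjusted p = 0.001). CCN2, which encodes connective tissue growth factor, fell by 1.09 in shRb (SE 0.09, adjusted p = 0.000238), with 8.05, 8.00 and 8.07 in treated cells, against 9.10, 9.13 and 9.18 in control cells. In Huh7 the log2 difference of CCN2 was -0.44 (adjusted p = 0.0793). SKIL lost its call in Huh7 without any one of the 4 Huh7 arrays (adjusted p 0.113 to 0.161).

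Of 7 glucocorticoid response genes besides KLF9, 6 were measured. In each line 1 rose, against 1.00% of all genes in Huh7 and 2.96% in shRb. None was called lower by limma or by the methods' t-test after adjustment. DUSP1, a phosphatase of MAP kinases, had 8.84 and 8.91 in sorafenib-treated Huh7 cells, against 7.62 and 7.57 in control Huh7 cells (log2 difference 1.28, SE 0.16, adjusted p = 0.00524). In shRb DUSP1 had 8.64, 9.07 and 8.84 with sorafenib, against 8.55, 8.22 and 8.44 without (0.45, adjusted p = 0.0886). DUSP1 was also called higher in control shRb than in control Huh7 cells (log2 difference 0.80). Whether this higher control level bears on its smaller difference in shRb was not tested. PER1, a clock gene, had 6.29, 6.60 and 6.45 in sorafenib-treated shRb cells, against 5.80, 5.93 and 6.05 in control shRb cells (0.52, SE 0.11, adjusted p = 0.0263). In Huh7 its log2 difference was 0.38 (adjusted p = 0.26). SGK1, a kinase gene, was the 1 gene of the list that was lower at an unadjusted p under 0.05, in both lines (6.75% of all genes in Huh7 and 11.0% in shRb). It had 5.03 and 4.48 in sorafenib-treated Huh7 cells, against 6.02 and 5.68 in control Huh7 cells (-1.10, SE 0.24, adjusted p = 0.0502). In shRb it had 5.18, 5.28 and 4.64 with sorafenib, against 5.73, 5.82 and 5.83 without (-0.76, SE 0.19, adjusted p = 0.0537). SGK1 thus lay lower on every treated array of both lines and missed the threshold. DUSP1 lost its call in Huh7 without control replicate 3 or treated replicate 6 (adjusted p = 0.0506 and 0.0516) and was called in shRb without treated replicate 10 (0.0481). PER1 lost its call without control shRb replicates 7 or 8 or treated replicates 11 or 12 (0.0743 to 0.103).

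Of 17 genes reported elsewhere as targets of these factors, 16 were measured. THBD, NOS3, TXNIP, PCK1, PRODH, SLC2A4, CCL5, LGALS3, ALPI and DIO1 had group means between 2.41 and 3.89, near or below the median cluster. The counts that follow include these dim genes. In Huh7, 0 were called higher and 1 lower, against 1.00% and 0.893% of all genes, and none by the methods' t-test after adjustment. At an unadjusted p under 0.05 from limma, 0 were higher and 1 lower in Huh7, against 6.75% of all genes each way. In shRb 1 was called higher and 2 lower, against 2.96% and 3.74% of all genes. CCNE1, which encodes cyclin E1, had 6.22 and 6.28 in sorafenib-treated Huh7 cells, against 7.00 and 6.91 in control Huh7 cells (log2 difference -0.71, SE 0.14, adjusted p = 0.0394). In shRb it had 6.19, 6.41 and 6.06 with sorafenib, against 7.16, 7.12 and 6.91 without (-0.84, SE 0.12, adjusted p = 0.00355). CCND1, which encodes cyclin D1, was lower in shRb (-0.54, SE 0.12, adjusted p = 0.0292). MAOA, monoamine oxidase A, a gene that KLF11 activates, had 6.84, 6.73 and 6.85 in sorafenib-treated shRb cells, against 6.15, 6.30 and 6.15 in control shRb cells (0.61, SE 0.10, adjusted p = 0.00645). In Huh7 the log2 difference of MAOA was -0.16 (adjusted p = 0.666), and the difference between the lines was 0.76 (adjusted p = 0.202). CCNE1 lost its call in Huh7 without any one of the 4 Huh7 arrays (adjusted p 0.154 to 0.211) or without control shRb replicates 7 or 8 (0.061 and 0.0649). CCND1 lost its call in shRb without control replicates 7, 8 or 9 or treated replicates 10 or 12 (0.0614 to 0.105).

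The genes whose values followed KLF10 and KLF11 most closely over the 10 arrays were named by Pearson's r, as a description over arrays that share groups. For KLF10 they were HEY1, a repressor induced by Notch and BMP (r = 0.988), NUAK2, a kinase of the AMPK family (r = 0.972), and RRP8, a nucleolar protein (r = 0.972). HEY1 differed by 1.70 in Huh7 and 0.92 in shRb on the log2 scale, NUAK2 by 1.94 and 0.79, and RRP8 by 0.54 and 0.34, each larger in Huh7, as for KLF10. For KLF11 they were SLC38A3, a glutamine transporter (r = 0.992), CREB5, a factor that binds CRE sites (r = 0.9915), and MTHFD2, a mitochondrial folate enzyme (r = 0.988). SLC38A3 differed by 0.85 and 1.07, CREB5 by 0.81 and 1.04, and MTHFD2 by 0.29 and 0.50 in Huh7 and shRb, each larger in shRb, as for KLF11. All these genes were chosen by likeness over the same arrays, so sharing the pattern of KLF10 or KLF11 follows from the choice. The difference between the lines was itself not called for KLF10 or KLF11.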

How the data were processed

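The authors ran RMA-sketch in Expression Console, and the deposited values are log2 of signal per transcript cluster. Genome build and software version are not given in the sources used here. All 53617 clusters and 10 arrays were used. The probe annotation gives 1 gene symbol for 23866 clusters, several for 1852 and none for 27899. A gene with more than 1 cluster of its own was taken by its brightest one.

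A model of 4 group means was fitted with limma 3.58.1 (R 4.3.3), leaving 6 residual degrees of freedom, and p-values were adjusted over all clusters by Benjamini-Hochberg (threshold 0.05). Alternatives were the methods' t-test, a trended and robust variance, brighter clusters, other normalizations, 1-symbol clusters, the arrays compared alone, each array left out in turn, and a replicate block for shRb. Simulated data with known changes served to check the code.

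The 10 members and all lists were chosen with earlier results of these data known. List members past the threshold in either line are named, at most 4 per list, with the 3 genes most like KLF10 and KLF11. SP1, SP3 and SGK1 were added after their values were seen. Upstream windows come from RefSeq, GRCh38.p14.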

Additional observations from a re-analysis of the deposited data

How the results depend on the processing

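With the Huh7 arrays alone, 1 of the 10 genes (KLF10) was higher in Huh7, and by the methods' t-test after adjustment 0 were, against 3 by limma, and leaving out each array gave 1 to 4, where a lone Huh7 array of a group is assumed to vary like the other groups. KLF2 was the 1 gene lower in Huh7 when only clusters at or above the median level, or only those with 1 symbol, were tested, and leaving out each array gave 0 to 1. In shRb the t-test called 1 gene higher (KLF10) and 0 lower, and with 1-symbol clusters 2 were lower (KLF2 and KLF5). Leaving out each array gave 3 to 4 higher and 0 to 2 lower in shRb. For control shRb against control Huh7, 2 genes were higher with clusters at or above the median level, 3 with 1-symbol clusters, 0 on these arrays alone and 0 by the t-test, and leaving out each array gave 0 to 2.

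Order words in the labels number the shRb samples. Deviations of samples with the same word correlated at -0.152, -0.163 and -0.0549, which gave no sign of pairing. Such correlations over few arrays cannot exclude pairing, so it remains undecided. With the word as a replicate block on the shRb arrays alone, 2 genes were higher (KLF10, adjusted p = 0.0356, and KLF11, 0.0263) and 0 lower. The shRb calls of KLF5, KLF6 and KLF9 were lost with this block (adjusted p = 0.112, 0.105 and 0.104). So were those of KLF7, SIN3B, SMURF2, WWP1, MAPK7, MAP3K3, SMAD7, PER1, CCND1 and MAOA (0.0706 to 0.207). SP8, SKIL, CCN2 and CCNE1 kept theirs, and of all these genes only CCN2 was called in shRb by the methods' t-test after adjustment. No paired analysis was possible in Huh7 because both treated samples carry the same word.

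Differences near 0 changed sign. KLF13 in Huh7 was 0.0282 after quantile normalization, and KLF15 in Huh7 ranged from -0.328 to 0.126 with each array left out. KLF4 in shRb was 0.0126 after quantile normalization and ranged from -0.137 to 0.0942 with each array left out. KLF13 in shRb ranged from -0.0446 to 0.101. The cause of these changes was not tested. The adjusted p of KLF10 in Huh7 exceeded 0.05 only by the t-test (0.403), and in shRb under no alternative (0.000257 to 0.0356). Each gene had 1 cluster, so the median over clusters gave the same values.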

Other observations

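KLF3-AS1, a non-coding gene that runs antisense to KLF3, has 2 clusters of its own, and neither was called with sorafenib in either line. The brighter cluster (16975185) had 3.75 and 3.52 in sorafenib-treated Huh7 cells, against 3.59 and 3.70 in control Huh7 cells, and 3.87, 3.79 and 3.99 in sorafenib-treated shRb cells, against 3.39, 3.69 and 3.73 in control shRb cells. Its log2 differences were 0.00 in Huh7 (SE 0.15, adjusted p = 0.997) and 0.28 in shRb (SE 0.12, adjusted p = 0.29). The treated shRb arrays lay above the control shRb arrays without overlap, and the Huh7 groups overlapped. The dimmer cluster (16975199) had 2.95 and 2.90 in sorafenib-treated Huh7 cells, against 2.58 and 2.54 in control Huh7 cells, without overlap (log2 difference 0.37, SE 0.18, adjusted p = 0.427). In shRb it had 2.65, 2.46 and 2.89 with sorafenib, against 2.68, 2.40 and 2.87 without, and the groups overlapped (0.02, SE 0.14, adjusted p = 0.978).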
